A study of Mus musculus with 10 samples.

Results

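In mouse salivary gland cells, 10 enzymes of the defence against peroxides and electrophiles were followed. They are the 4 glutathione peroxidases Gpx1, Gpx2, Gpx3 and Gpx4 and 6 genes that the transcription factor Nrf2 is known to switch on, Nqo1, Hmox1, Gclc, Gclm, Srxn1 and Txnrd1. They were chosen by name, with earlier results of these data known. These enzymes make up 10 of the 22180 genes that had a probe set assigned to 1 gene symbol. Each of the 10 had 1 such probe set, and all 10 passed the filter on dim signals that left 18826 genes for testing. The RNA came from female NOD/shiLtJ mice, a strain prone to autoimmune diabetes. One group had type 1 diabetes at 21 weeks of age (4 arrays), another had no diabetes label at 21 weeks (3 arrays) and the last had no diabetes label at 6 weeks (3 arrays). The sample titles call these groups T_S, SS and Young, in that order, and the letters are not explained in the labels. A group without a diabetes label is therefore not known to have had healthy glands. No transgene, drug or diet is named for any group. Every group went through an enzymatic digestion, with collagenase IV and dispase II, that freed the gland cells before RNA was extracted. The labels do not say which salivary gland was taken, how diabetes was scored or how long it had lasted, and they number the samples of each group without saying whether each came from 1 animal.

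Glutathione peroxidases reduce hydrogen peroxide and lipid peroxides to water and alcohols at the expense of glutathione, and all 4 measured here carry selenocysteine at their active site in the mouse. Nrf2, encoded by Nfe2l2, is held in the cytoplasm and marked for destruction by Keap1. Oxidants and electrophiles release it, and it then binds the antioxidant response element in front of genes for glutathione synthesis, thioredoxin recycling, quinone reduction and heme breakdown. Salivary acinar cells secrete large amounts of protein, and peroxide is known to form as disulfide bonds are made in the endoplasmic reticulum.

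The arrays gave log2 intensities, so a difference of 1 is a doubling, and levels of different probe sets cannot be set against each other. Their number, 3 or 4 in a group, limits the precision of every value. Array 3 of the nondiabetic 21-week group and array 4 of the diabetic group stood somewhat apart, with their highest correlations to any other array at 0.961 and 0.967, against 0.975 to 0.983 for the other 8 arrays. The diabetic glands also differed in cell markers. The mean level over 9 serous acinar markers was 10.07 to 10.36 in diabetic arrays, 6.07 to 7.67 in nondiabetic 21-week arrays and 6.50 to 9.03 in 6-week arrays. Of the 9, 6 rose with diabetes, against 1.1% of all genes, and all 6 were genes of secreted cargo such as Amy1. The other 3 did not pass: Aqp5 had a log2 difference of 0.10, Bhlha15 of -0.28 and Prol1 of -0.12. For 8 markers of the granular convoluted tubule, a duct segment of the submandibular gland, it was 4.66 to 6.74 in diabetic arrays, 9.31 to 10.08 in nondiabetic 21-week arrays and 8.08 to 8.59 in 6-week arrays. Of 12 immediate-early genes, which also respond to tissue digestion, 11 rose with diabetes, against 1.1% of all genes. The mean over the 12 was 7.69 to 8.15 in diabetic arrays, against 6.56 to 6.84 in nondiabetic 21-week arrays. Within the 6-week group the serous cargo gene Smr3a had 9.18, 3.17 and 7.19. Over 6 mucous markers the mean was 4.97 to 5.70 in diabetic arrays and 3.87 to 5.56 in nondiabetic 21-week arrays. With diabetes 4 of the 6 had a positive and 2 a negative log2 difference. Muc19 among them was 10.6 to 11.7 in diabetic arrays, and 2.03, 10.86 and 4.70 in nondiabetic 21-week arrays. The part of these shifts in the results below was not tested. In bulk cells a different mix of glands, fewer cells of a type and less RNA per cell cannot be told apart.

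Diabetic and nondiabetic mice of the same age were compared first. Of the 10 enzymes 1 rose, Gpx3, and 0 fell. The other 9 did not pass limma's test at an adjusted p of 0.05. Over all genes, 271 of 18826 passed (1.44%), 207 higher (1.1%) and 64 lower (0.34%) in the diabetic glands, and after quantile normalization 130 were higher and 100 lower. Before adjustment, 3 of the 10 had p under 0.05 (Gpx3, Hmox1 and Gclc), against 15.8% of all genes. The median log2 change of the 10 was 0.03, and that of all genes was also 0.03. Between the nondiabetic groups of 21 and 6 weeks, 0 of the 10 passed limma's test and 0 had an unadjusted p under 0.05. Of all genes 0.0266% passed (5 genes, with 0.00531% higher and 0.0212% lower at 21 weeks), and 7.47% had an unadjusted p under 0.05. Between diabetic mice and nondiabetic 6-week mice, which differ in age as well as in disease, 0 of the 10 passed and 2 had an unadjusted p under 0.05 (Gpx3 and Hmox1), against 14.9% of all genes. Of all genes 1.44% passed there (0.903% higher and 0.542% lower in diabetic mice). The first and last of these comparisons share the diabetic arrays, and the first and second share the nondiabetic 21-week arrays.

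**Figure D1:**
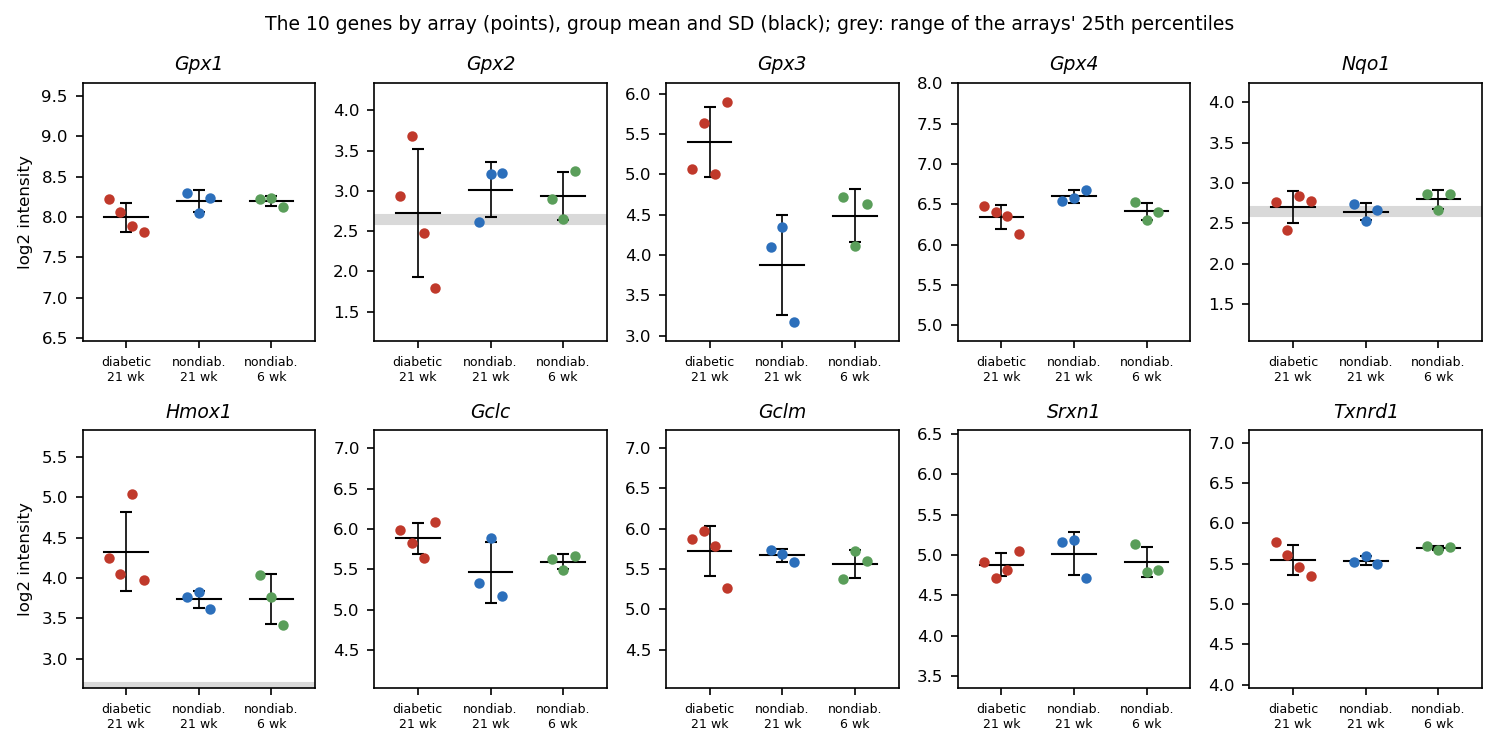
Log2 intensity of the 10 enzymes on each array (points), with group means and SDs (black) and, where it falls in a panel, the range of the arrays' 25th percentiles (grey), for diabetic 21-week, nondiabetic 21-week and nondiabetic 6-week mice from left to right in each panel. The 4 diabetic arrays of Gpx3, at 5.01 to 5.89, lie above all 6 nondiabetic arrays, which reach 4.73, and most other panels show overlapping groups.

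The antioxidant response element has a short core that can be searched in promoters. The letters TGACNNNGC and TGAGNNNGC, where N is any base, were looked for on both strands of RefSeq windows of the GRCm38.p6 build that run from 250 bases before to 50 bases after each gene's start. For 8 of the 10 enzymes a window was given, 13 windows over all their starts, while Hmox1 and Gclc were not in the table. At least 1 match was found in 27.8% of all 32851 windows, so a match by itself is common. Srxn1, Gclm and Txnrd1 held matches, 5 in all, and Gpx1, Gpx2, Gpx3, Gpx4 and Nqo1 held 0. Counted by window, as the 27.8% is, 3 of the 13 windows held a match. The 250 bases before the start are printed for the 3 genes with a match and for Gpx3, the gene that changed, from 5′ to 3′ along the gene's strand, with matches in capitals. A match on the opposite strand therefore reads as its reverse complement.
Gpx3, chr11:54902604-54902853, plus strand: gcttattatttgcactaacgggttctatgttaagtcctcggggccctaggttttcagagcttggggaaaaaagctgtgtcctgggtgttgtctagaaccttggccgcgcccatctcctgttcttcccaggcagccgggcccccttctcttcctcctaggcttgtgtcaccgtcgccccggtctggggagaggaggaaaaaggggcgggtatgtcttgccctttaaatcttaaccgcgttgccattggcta
Srxn1, chr2:152105274-152105523, plus strand: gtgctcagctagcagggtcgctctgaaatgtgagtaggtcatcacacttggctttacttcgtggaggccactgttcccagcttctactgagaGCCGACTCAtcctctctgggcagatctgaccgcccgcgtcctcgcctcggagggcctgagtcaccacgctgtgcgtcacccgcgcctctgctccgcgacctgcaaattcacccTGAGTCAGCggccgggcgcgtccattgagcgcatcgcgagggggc
Gclm, chr3:122245307-122245556, plus strand: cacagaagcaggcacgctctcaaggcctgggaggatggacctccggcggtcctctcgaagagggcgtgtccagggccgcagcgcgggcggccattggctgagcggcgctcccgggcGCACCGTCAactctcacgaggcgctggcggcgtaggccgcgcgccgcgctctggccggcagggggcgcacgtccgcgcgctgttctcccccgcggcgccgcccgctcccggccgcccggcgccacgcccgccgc
Txnrd1, second of its 3 windows, chr10:82858956-82859205, plus strand: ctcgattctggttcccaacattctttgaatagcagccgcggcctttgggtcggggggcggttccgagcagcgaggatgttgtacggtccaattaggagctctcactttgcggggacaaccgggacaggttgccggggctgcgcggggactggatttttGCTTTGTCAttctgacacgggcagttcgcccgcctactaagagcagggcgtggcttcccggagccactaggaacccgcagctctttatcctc
In Srxn1 the match TGAGTCAGC begins at position -45, counted from the start of the gene, and overlaps the AP-1 letters TGACTCA read on the other strand, which occur in 5.2% of all windows. A further Srxn1 match on the opposite strand begins at position -158, and another begins at position 29 after the start, beyond the stretch printed. The Gclm match begins at position -134 and the Txnrd1 match at position -92, both on the opposite strand. None of the 3 genes with a match passed the test in any of the comparisons, and the gene that passed had no match in its window. A match is a description of letters only, and its absence says nothing about Nrf2 binding.

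Gpx3 encodes the secreted glutathione peroxidase that is known from blood plasma and the space around cells. Its values in the diabetic group were 5.06, 5.64, 5.01 and 5.89, against 4.10, 4.35 and 3.17 in the nondiabetic 21-week group. The nondiabetic 6-week group had 4.73, 4.12 and 4.63. Every diabetic array was higher than every nondiabetic array of either age, and array 3 of the nondiabetic 21-week group was the lowest of all 10. Means were 5.40 ± 0.44 (SD, n = 4) in diabetic mice, 3.88 ± 0.62 (SD, n = 3) in nondiabetic mice of 21 weeks and 4.49 ± 0.33 (SD, n = 3) in those of 6 weeks. With diabetes Gpx3 rose 2.88-fold, a log2 change of 1.53 ± 0.29 (SE, 95% interval 0.91 to 2.15, limma adjusted p = 0.0229). A higher log2 change was found for 58 of the 18826 genes. Leaving out array 3 of the nondiabetic 21-week group lowered the Gpx3 change to 1.18 and ended the call (adjusted p = 0.0791), as did leaving out array 2 of the diabetic group (1.45, adjusted p = 0.0671). Without both arrays that stand apart, which were chosen after seeing the data, it was 1.01 (adjusted p = 0.0713).

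With age alone Gpx3 did not pass, with a log2 difference of -0.61 ± 0.31 between nondiabetic mice of 21 and 6 weeks (SE, 95% interval -1.28 to 0.05, limma adjusted p = 0.69). Without array 3 of the nondiabetic 21-week group that difference was -0.26 (adjusted p = 0.91). Against the 6-week mice the diabetic mice were 0.91 ± 0.29 higher on the log2 scale, or 1.88-fold (95% interval 0.29 to 1.53, adjusted p = 0.152). Here too the groups did not overlap, and Gpx3 was the 1 of the 10 enzymes without overlap in this comparison, against 16.7% of all genes (8.2% higher and 8.49% lower). Gpx3 also varied widely within groups. Its pooled within-group SD was 0.47, below the 0.57 of Gpx2 and above those of the other 8 enzymes, and 2.5% of all genes exceeded it, beside a median of 0.20 over all genes.

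The 5 genes whose pattern over the 10 arrays was most like that of Gpx3 were Etnk1, S100a6, Acta2, Mmp14 and Scn7a. Likeness was the root mean square difference after each gene was centred on its own mean, and Gpx3 itself had an SD of 0.79 over the 10 arrays. Etnk1, which encodes an ethanolamine kinase, differed from it by 0.20, S100a6, a calcium-binding protein, by 0.28, and Acta2, the smooth muscle actin of myoepithelial and vascular cells, by 0.32. Mmp14, a membrane-bound matrix protease, and Scn7a, a sodium channel family gene, each differed by 0.33. All 5 genes, like Gpx3, had array 3 of the nondiabetic 21-week group or array 2 of the 6-week group as their lowest value and array 4 of the diabetic group as their highest. Since these genes were chosen for their likeness to Gpx3, their own changes are a description. Their log2 differences with diabetes ranged from 0.91 in Mmp14 to 1.48 in Scn7a, with 1.30 in Etnk1, 1.4 in S100a6 and 1.26 in Acta2. Mmp14 did not pass the test (limma adjusted p = 0.118). With 1 array left out, the call held in 9 of 10 fits for Scn7a, 7 for Etnk1, 7 for Acta2 and 4 for S100a6.

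**Figure D2:**
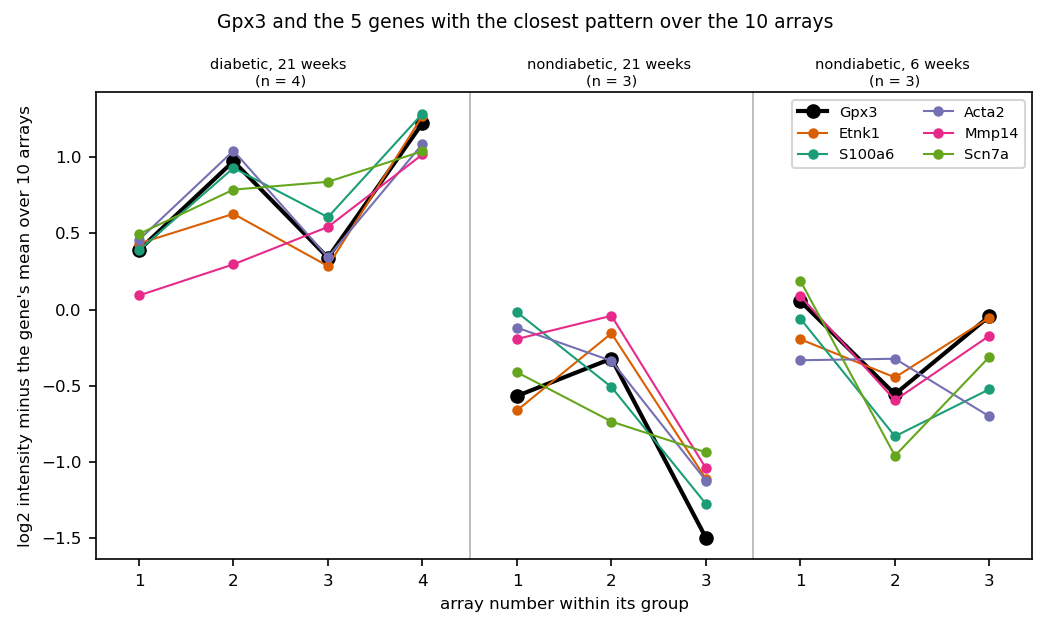
Centred log2 intensity of Gpx3 and the 5 genes most like it on each of the 10 arrays, in the order diabetic 21-week, nondiabetic 21-week and nondiabetic 6-week. All 6 genes peak on diabetic array 4, where Gpx3 stands 1.22 above its mean, and Gpx3 is lowest on nondiabetic 21-week array 3.

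Markers of several further cell types also differed between the diabetic and the nondiabetic 21-week arrays. Beside the counts of markers that follow, 1.1% of all genes rose and 0.34% fell with diabetes. The mean over 7 adipocyte markers was 4.70 to 5.15 in diabetic arrays, 3.62 to 4.11 in nondiabetic 21-week arrays and 3.99 to 4.13 in 6-week arrays, and 3 of the 7 rose with diabetes (Fabp4, Car3 and Retn). The hormone Adipoq, a defining adipocyte product, was above the dim level on 7 of the 10 arrays, with 2.78, 3.13, 3.06 and 3.16 in diabetic mice and 2.69, 2.78 and 2.41 in nondiabetic 21-week mice (adjusted p = 0.202). The mean over 6 myoepithelial markers was 4.75 to 5.11 in diabetic arrays, 3.78 to 4.55 in nondiabetic 21-week arrays and 4.35 to 4.48 in 6-week arrays, and 2 of the 6 rose. Over 11 macrophage markers the mean was 5.31 to 5.84 in diabetic arrays, 4.79 to 4.94 in nondiabetic 21-week arrays and 4.69 to 5.2 in 6-week arrays, and 2 of the 11 rose. Over 9 duct markers it was 5.80 to 6.08 in diabetic arrays, 6.24 to 6.30 in nondiabetic 21-week arrays and 6.10 to 6.36 in 6-week arrays, and 2 of the 9 fell. The duct markers did not move together. At 21 weeks the groups did not overlap for 2 of the 9 that were higher with diabetes (Krt8 and Krt18) and 4 that were lower, against 9.11% and 4.98% of all genes. Fibroblast markers averaged 6.06 to 6.42 in diabetic arrays, 5.0 to 5.73 in nondiabetic 21-week arrays and 5.39 to 6.89 in 6-week arrays. The diabetic range thus lay within that of the 6-week arrays. With diabetes 0 of the 7 fibroblast markers passed although 4 had an unadjusted p under 0.05, against 15.8% of all genes. Whether these cells carried the Gpx3 signal was not tested.

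The other 3 glutathione peroxidases had lower group means in the diabetic glands than in nondiabetic glands of the same age, and none of them passed the test. Gpx4, which reduces lipid peroxides within membranes and protects cells from ferroptosis, had 6.47, 6.40, 6.35 and 6.13 in diabetic mice, against 6.54, 6.57 and 6.68 in nondiabetic 21-week mice. It had 6.53, 6.31 and 6.40 in 6-week mice. The nondiabetic 21-week arrays lay above all 7 others, by little. The log2 difference with diabetes was -0.26 ± 0.12 (SE, 95% interval -0.52 to 0.01, limma adjusted p = 0.33). With age it was 0.18 ± 0.13 (adjusted p = 0.776).

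Gpx1, the abundant cytosolic and mitochondrial peroxidase, had 8.22, 8.06, 7.89 and 7.82 in diabetic mice, against 8.30, 8.05 and 8.24 in nondiabetic 21-week mice. In 6-week mice it had 8.23, 8.24 and 8.13. Arrays 3 and 4 of the diabetic group were below all others, and the remaining diabetic arrays lay among the nondiabetic ones. Its log2 difference with diabetes was -0.20 ± 0.13 (SE, 95% interval -0.48 to 0.08, limma adjusted p = 0.479), and with age it was near 0, with a 95% interval of -0.30 to 0.30 (adjusted p = 0.999). Gpx1 lay between percentiles 97.4 and 98.3 of its array throughout. Gpx2, a peroxidase of gut and other epithelia, had 2.94, 3.68, 2.48 and 1.80 in diabetic mice, 2.62, 3.21 and 3.22 in nondiabetic 21-week mice and 2.90, 2.65 and 3.25 in 6-week mice. It was above its array's 25th percentile on 6 of the 10 arrays and so lay close to background. The diabetic arrays held both the highest and the lowest Gpx2 value, and the log2 difference with diabetes was -0.29 ± 0.34 (95% interval -1.04 to 0.45, adjusted p = 0.715).

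Among the 6 Nrf2 targets, 5 had a positive log2 difference with diabetes and 1 a negative one. Of all 18826 genes 10545 were positive and 8281 negative. The differences of Nqo1 and Gclm were 0.06 each and that of Txnrd1 was 0.00. Of the 6, 0 passed the test and 2 had an unadjusted p under 0.05, against 15.8% of all genes. Their median log2 change was 0.06, against 0.03 for all genes. Hmox1, the inducible heme oxygenase, breaks heme down to biliverdin, iron and carbon monoxide. It had 4.25, 4.05, 5.05 and 3.98 in diabetic mice, against 3.76, 3.83 and 3.62 in nondiabetic 21-week mice. In 6-week mice Hmox1 had 4.04, 3.76 and 3.42. All 4 diabetic arrays were above the 3 nondiabetic arrays of the same age, and diabetic array 3 was the highest by a wide margin. The log2 difference was 0.59 ± 0.23 (SE, 95% interval 0.09 to 1.09, limma adjusted p = 0.246), a ratio of 1.51, and 0.35 without diabetic array 3. Against 6-week mice the Hmox1 difference was also 0.59 ± 0.23 (adjusted p = 0.255), and 0.35 without diabetic array 3. Between the nondiabetic ages the Hmox1 interval ran from -0.54 to 0.53.

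The diabetic array with the most Hmox1 also had the most macrophage signal. Macrophages are known for high Hmox1 when they clear red cells. The mean over 11 macrophage markers, given above by group, was 5.84 on diabetic array 3 and 5.31 to 5.41 on the other diabetic arrays. Of the 11 markers 2 rose with diabetes, Cd68 and Mrc1. Cd163, the macrophage receptor for haemoglobin and haptoglobin complexes, had 4.42, 4.60, 5.85 and 4.82 in diabetic mice and 4.46, 4.34 and 3.73 in nondiabetic 21-week mice, and was likewise highest on diabetic array 3. The part of macrophages in the Hmox1 values was not tested.

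Gclc and Gclm encode the catalytic and the modifier subunit of glutamate-cysteine ligase, the enzyme that sets the rate of glutathione synthesis. Gclc had 5.99, 5.83, 5.64 and 6.08 in diabetic mice, against 5.34, 5.89 and 5.16 in nondiabetic 21-week mice. It had 5.63, 5.49 and 5.66 in 6-week mice. The groups of 21 weeks overlapped through array 2 of the nondiabetic group. The log2 difference of Gclc with diabetes was 0.42 ± 0.17 (SE, 95% interval 0.05 to 0.80, limma adjusted p = 0.259), and without nondiabetic 21-week array 3 it was 0.27. Gclm had 5.87, 5.97, 5.78 and 5.27 in diabetic mice, against 5.73, 5.69 and 5.58 in nondiabetic 21-week mice and 5.38, 5.72 and 5.59 in 6-week mice. Diabetic arrays 1, 2 and 3 were above every nondiabetic array and the remaining one, array 4, was the lowest of all 10. Its log2 difference was 0.06 ± 0.17 (95% interval -0.30 to 0.42, adjusted p = 0.901). The unequal differences of the subunits were not tested against each other.

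Srxn1 encodes sulfiredoxin, which restores overoxidised peroxiredoxins, and Txnrd1 the cytosolic thioredoxin reductase, itself a selenoprotein. Srxn1 had 4.92, 4.72, 4.82 and 5.05 in diabetic mice, against 5.16, 5.18 and 4.71 in nondiabetic 21-week mice and 5.13, 4.80 and 4.81 in 6-week mice. The 3 groups overlapped, and the log2 difference of Srxn1 with diabetes was -0.14 ± 0.15 (SE, 95% interval -0.47 to 0.19, limma adjusted p = 0.691). Txnrd1 had 5.77, 5.61, 5.46 and 5.34 in diabetic mice, against 5.52, 5.60 and 5.50 in nondiabetic 21-week mice. In 6-week mice it had 5.72, 5.67 and 5.71. Both nondiabetic groups were narrow, with SDs of 0.05 at 21 weeks and 0.02 at 6 weeks, while the diabetic values of Txnrd1 spread on both sides of them. Its log2 difference with diabetes was 0.00 ± 0.12 (95% interval -0.27 to 0.27, adjusted p = 0.993). With age the nondiabetic groups did not overlap and differed by -0.16 ± 0.13 (adjusted p = 0.806).

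Nqo1, a quinone reductase that is widely used as a readout of Nrf2, lay near background. It exceeded its array's 25th percentile on 7 of the 10 arrays and reached percentile 30.1 at most. Nqo1 had 2.77, 2.41, 2.84 and 2.78 in diabetic mice, against 2.74, 2.53 and 2.66 in nondiabetic 21-week mice and 2.87, 2.66 and 2.86 in 6-week mice. The groups overlapped, with a log2 difference of 0.06 ± 0.13 with diabetes (SE, 95% interval -0.23 to 0.35, limma adjusted p = 0.872). At this signal a difference in Nqo1 could be missed.

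**Figure D3:**
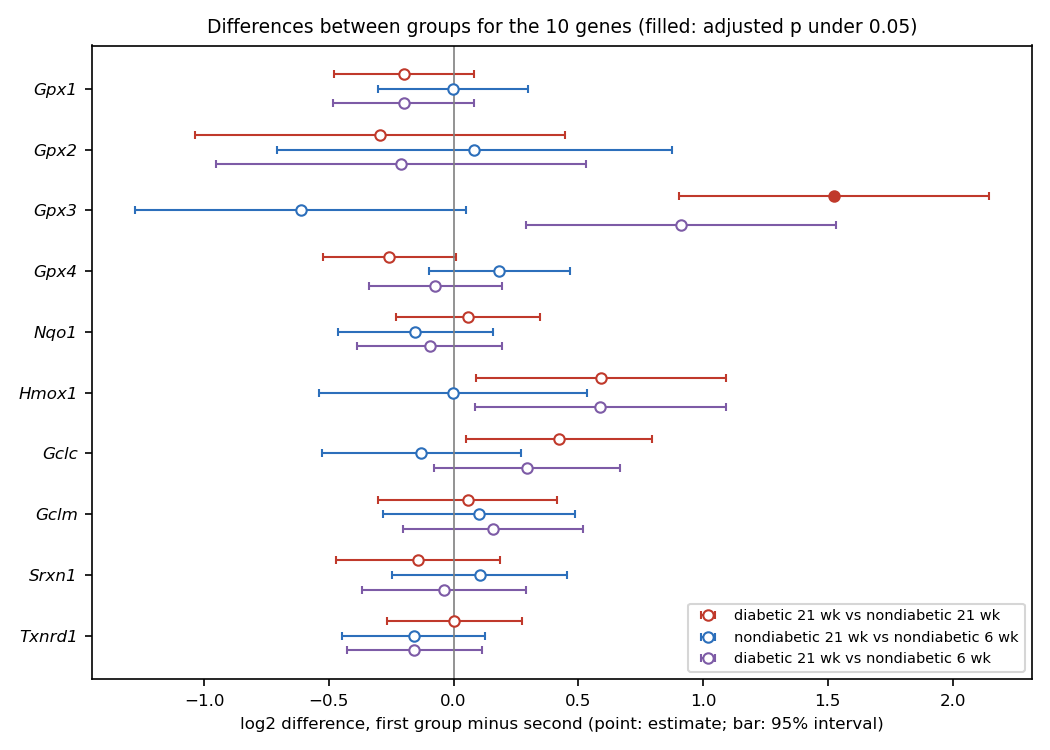
Log2 change of each enzyme with its 95% interval from the limma fit, for diabetic over nondiabetic at 21 weeks, nondiabetic 21-week over nondiabetic 6-week, and diabetic over nondiabetic 6-week mice. The Gpx3 interval with diabetes runs from 0.91 to 2.15, and those of Gpx1, Gpx2, Gpx4, Nqo1, Gclm, Srxn1 and Txnrd1 in that comparison include 0.

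Groups that do not overlap were counted for all 10 enzymes. Diabetic and nondiabetic 21-week mice did not overlap for Gpx3 and Hmox1 (higher) and Gpx4 (lower), which is 3 of 10, against 14.1% of all genes (9.11% higher and 4.98% lower). The nondiabetic ages did not overlap for Gpx4 (higher at 21 weeks) and Txnrd1 (lower at 21 weeks), which is 2 of 10, against 13.8% of all genes (4.11% higher and 9.73% lower). These counts were not tested. The array that most often held the extreme value of its group among the diabetic mice was array 4. It had the lowest value of its group for Gpx1, Gpx2, Gpx4, Hmox1, Gclm and Txnrd1 and the highest for Gpx3, Gclc and Srxn1, which is 9 of the 10 enzymes, against 61.8% of all genes. That array also had the most lymphocyte signal, with a mean over 5 T cell markers of 5.73 against 4.41 to 4.49 on the other diabetic arrays, and over 5 B cell markers of 5.89 against 3.88 to 4.34. Its part in the values of the enzymes was not tested. Over the same T cell markers the mean was 3.93 to 4.89 in nondiabetic 21-week arrays and 3.55 to 3.72 in 6-week arrays. With age 0 of these 5 markers passed.

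Genes around these enzymes were read from 11 lists that cover Nrf2 control, glutathione, NADPH, other detoxification, superoxide, thioredoxin, heme and iron, selenoproteins and oxidases. They named 161 genes, of which 142 had a probe set assigned to 1 gene symbol and 139 were tested. Prdx1, Prdx5, Prdx6, G6pdx, Tkt and Ftl1 were among those without such a probe set. Of the 139 tested genes 5 rose and 0 fell with diabetes (3.6%, against 1.44% of all genes). The lists were written with earlier results of these data known, so this share is only a description. No gene of the lists passed with age, against 0.0266% of all genes. With age 10 of the 139 had an unadjusted p under 0.05, against 7.47% of all genes. Between diabetic and 6-week mice 3 rose and 2 fell (3.6% together, against 1.44% of all genes). Among 13 regulators of Nrf2, 0 passed with diabetes and 3 had an unadjusted p under 0.05, against 15.8% of all genes. Bach1, a repressor that competes with Nrf2 at the response element and is released by heme, had a log2 difference of 0.59 ± 0.15 (SE, limma adjusted p = 0.0762), with 5.50, 5.69, 5.85 and 5.90 in diabetic mice and 4.98, 5.35 and 5.10 in nondiabetic 21-week mice. Nfe2l2 itself and Keap1, named for their role and not by the naming rule, had log2 differences of 0.31 ± 0.18 (adjusted p = 0.425) and -0.17 ± 0.12 (adjusted p = 0.498).

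Few superoxide and peroxide enzymes outside the 10 passed the test. Of 7 superoxide dismutases and peroxiredoxins 1 rose, against 1.1% of all genes. It was Sod3, the extracellular superoxide dismutase. Sod3 had 4.83, 4.88, 4.95 and 4.71 in diabetic mice, against 3.90, 4.41 and 3.95 in nondiabetic 21-week mice, a 1.69-fold rise (log2 change 0.76 ± 0.15, limma adjusted p = 0.0254). The groups did not overlap. In 6-week mice Sod3 had 4.31, 4.41 and 4.12, and it did not pass against them. The Sod3 call held in 5 of the 10 fits that left out 1 array (log2 change 0.66 to 0.92) and was lost without diabetic array 1, 2 or 3 or nondiabetic 21-week array 1 or 3 (adjusted p up to 0.112). Of the 7 genes of this list 5 had a negative log2 difference, against 8281 of all 18826 genes. Sod2 was among the 5, at -0.38 ± 0.14 (limma adjusted p = 0.238). Of 4 genes tested from a list of further glutathione peroxidases and catalase, 0 passed and 0 had an unadjusted p under 0.05. Of 16 thioredoxin and glutaredoxin genes 1 rose, against 1.1% of all genes. It was Txnip, which binds and inhibits thioredoxin and is induced by glucose. Txnip had 9.71, 10.22, 10.05 and 10.28 in diabetic mice, against 8.97, 9.10 and 9.10 in nondiabetic 21-week mice and 9.88, 9.86 and 9.82 in 6-week mice. The diabetic and the 6-week arrays overlapped, and the nondiabetic 21-week arrays were lower than both. Its log2 change was 1.01 ± 0.14 with diabetes (adjusted p = 0.00472), and it was called in all 10 fits that left out 1 array.

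Of 14 heme and iron genes 2 rose and 0 fell with diabetes, against 1.1% and 0.34% of all genes. Lcn2, a secreted protein that binds iron-carrying siderophores, had 6.25, 6.21, 5.96 and 6.10 in diabetic mice, against 4.95, 4.35 and 4.22 in nondiabetic 21-week mice and 4.81, 4.67 and 5.07 in 6-week mice. Every diabetic value of Lcn2 was above every nondiabetic one, and its log2 change was 1.62 ± 0.17 with diabetes (limma adjusted p = 0.000608) and 1.28 ± 0.17 against 6-week mice (adjusted p = 0.00473). Cp, ceruloplasmin, a secreted copper ferroxidase, had 5.16, 5.38, 5.89 and 5.95 in diabetic mice, against 4.61, 3.94 and 4.22 in nondiabetic 21-week mice. In 6-week mice Cp had 5.35, 3.92 and 4.82, which overlapped with the diabetic values, and it did not pass in that comparison. Against nondiabetic 21-week mice Cp rose 2.53-fold (log2 change 1.34 ± 0.30, adjusted p = 0.0479). The Cp call held in 3 of the 10 fits that left out 1 array (log2 change 1.18 to 1.52), and was lost without diabetic array 2, 3 or 4, any nondiabetic 21-week array or 6-week array 3 (adjusted p up to 0.15). Of 21 genes for selenoproteins and their synthesis 1 rose, against 1.1% of all genes. It was Selenop, the secreted selenium carrier. Selenop had 5.36, 5.58, 6.15 and 5.85 in diabetic mice, against 4.93, 4.77 and 4.52 in nondiabetic 21-week mice, and its log2 change was 0.99 ± 0.20 (adjusted p = 0.0314). Its call held in 4 of the 10 fits that left out 1 array (log2 change 0.85 to 1.12), and was lost without diabetic array 2, 3 or 4 or any nondiabetic 21-week array (adjusted p up to 0.134). Selenop was also 0.99 ± 0.20 higher than in 6-week mice (adjusted p = 0.0327), a call lost without diabetic array 2, 3 or 4 or 6-week array 2 or 3 (adjusted p up to 0.144).

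Glutathione genes outside the 10 did not pass with diabetes. Of 11 genes for synthesis and recycling, 0 passed and 2 had an unadjusted p under 0.05, against 15.8% of all genes. Ggct was lower with diabetes, with a log2 difference of -0.34 ± 0.13 (SE, limma adjusted p = 0.244). Slc3a2, a heavy chain of amino acid transporters, had a log2 difference of 0.43 ± 0.15 (SE, limma adjusted p = 0.184). Its means were 9.03 in diabetic, 8.60 in nondiabetic 21-week and 9.13 in 6-week mice. Slc7a11, the light chain of the cystine transporter, is named for its role. Its brightest probe set was above the dim level on 0 of the 10 arrays, and it was not tested. Of 18 glutathione transferases 0 passed and 5 had an unadjusted p under 0.05, against 15.8% of all genes. The groups did not overlap for 2 of the 18 (higher) and 3 (lower), against 9.11% and 4.98% of all genes. Gstt3 was lower with diabetes, with a log2 difference of -0.48 ± 0.11 (limma adjusted p = 0.0614). Mgst1, a membrane-bound transferase, had 5.14, 5.46, 5.77 and 5.67 in diabetic mice, against 4.92, 4.64 and 4.21 in nondiabetic 21-week mice (log2 difference 0.92 ± 0.22, adjusted p = 0.0592). Against 6-week mice, which had 4.64, 3.96 and 4.62, it rose 2.15-fold (log2 change 1.11 ± 0.22, adjusted p = 0.0295). The transferase Gstt3 fell by 0.54 ± 0.11 on the log2 scale in that comparison (adjusted p = 0.0369), as did Msrb1, a methionine sulfoxide reductase and selenoprotein, by 0.61 ± 0.11 (adjusted p = 0.0241). Leaving out 1 array kept these calls in 4 of 10 fits for Mgst1 (adjusted p up to 0.12), 2 of 10 for Gstt3 (up to 0.167) and 5 of 10 for Msrb1 (up to 0.115). All 3 calls were lost without diabetic array 2 or 3 or any 6-week array, Mgst1 also without diabetic array 4, and Gstt3 also without diabetic array 1 or nondiabetic 21-week array 1 or 2. Of 7 genes for NADPH supply, 16 other Nrf2 targets and 12 oxidases that make superoxide, 0 passed with diabetes. At an unadjusted p under 0.05 there were 2, 4 and 4 of them, against 15.8% of all genes.

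**Figure D4:**
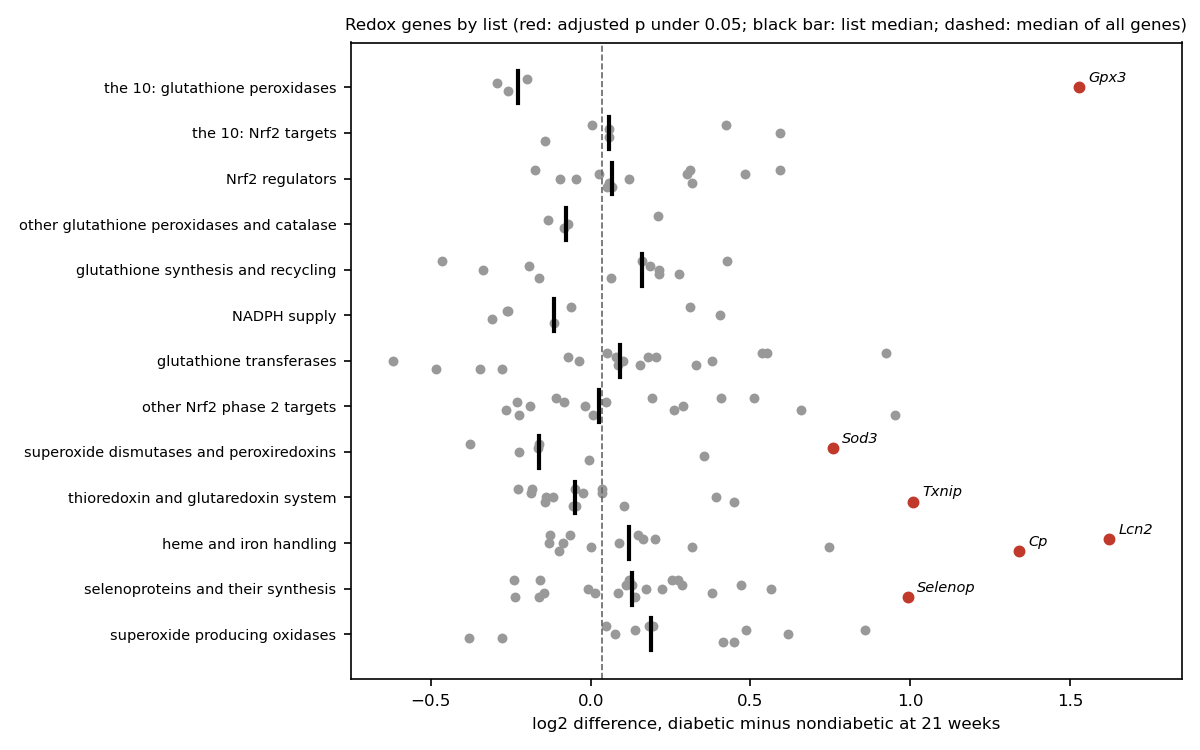
Log2 change of diabetic over nondiabetic 21-week mice for every tested gene of the 10 enzymes and the 11 lists (points), with the median of each list. The medians of the 11 lists lie between -0.16 (superoxide dismutases and peroxiredoxins) and 0.19 (oxidases), and the genes that passed the test, Gpx3, Sod3, Txnip, Lcn2, Cp and Selenop, lie between 0.76 (Sod3) and 1.62 (Lcn2).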

How the data were processed

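Log2 intensities of 41345 probe sets on 10 arrays were used as deposited; the authors used Affymetrix Power Tools for RMA normalization, as the submitters' processing notes name, with versions and settings not given in the sources used here. An array gene table gave 1 symbol to 23521 probe sets. Those with several symbols (1814) or none (16010) were left out. Probe sets above their array's 25th percentile, the dim level of the text, on at least 3 arrays were kept, and the brightest stood for each gene (18826 genes). All arrays entered 1 limma 3.58.1 fit (R 4.3.3, lmFit and eBayes, two-sided, 7 residual and 5.61 prior degrees of freedom), with Benjamini-Hochberg adjustment over all genes and a threshold of 0.05. SDs are within groups, and p-values measure the spread between arrays, which the labels do not state to be separate animals. The steps were tested on simulated data. The 10 enzymes and all lists were chosen with earlier results of these data known. The text names the 10 enzymes, list genes past the threshold or otherwise at most 2 with the smallest p, and the 5 genes most like an enzyme that passed. Alternatives covered filters, the mean of probe sets, 2-group fits, trended and robust variance, scaling, the threshold, a replicate block and each array left out.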

Additional observations from a re-analysis of the deposited data

Results flagged for a closer look

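Dixon's test at the 95% level, which chance passes in about 1 of 20 groups, was run in the 4 diabetic arrays on 18 genes, the 10 enzymes and the list genes that passed a test, and 2 genes passed it. Nqo1 was 2.41 on diabetic array 2, below the others by 0.833 of the group's range, at a signal near background. Msrb1 was 6.62 on diabetic array 3, above the others by 0.91 of a range of less than 0.1.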

How the results depend on the processing

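Gpx3 kept a positive log2 change with diabetes under every alternative run, from 1.01 to 1.76, and its call was kept under the filters, the mean of probe sets, the fit of only the compared groups, the trended and robust variance and both scalings. With the replicate number as a block, which leaves diabetic array 4 without a partner and out of the estimate, Gpx3 changed by 1.36 (adjusted p = 0.0581) and 0 of the 10 enzymes were called. The labels do not pair the numbers, and deviations of arrays with the same number correlated at -0.12, -0.02 and -0.02 between diabetic and nondiabetic 21-week mice. Of the 10 enzymes, 0 were called at an adjusted p under 0.01, 0 without both arrays that stand apart (an alternative added after seeing the data) and 0 to 1 when 1 array was left out. The count of all genes called with diabetes, 271, was 161 in the fit of only the 2 groups, 69 at an adjusted p under 0.01, 176 without both arrays and 84 to 267 when 1 array was left out. With age, 5 became 0 in the fit of only the 2 groups (1377 at an unadjusted p under 0.05), 12 with trended and robust variance, 3 at the stricter threshold, 42 without both arrays and 1 to 10 when 1 was left out. Between diabetic and 6-week mice, 272 became 58 at the stricter threshold, 508 without both arrays and 48 to 400 when 1 was left out. Quantile normalization gave 130 higher and 100 lower genes with diabetes in place of 207 and 64, and 157 higher and 162 lower against 6-week mice in place of 170 and 102. Signs turned only for differences that did not pass the test. With diabetes, quantile normalization gave -0.10 for Gclm and -0.15 for Txnrd1, centring -0.011 for Txnrd1, the block 0.014 for Gpx2 and the fit without both arrays 0.12 for Gpx2. With age, quantile normalization gave 0.035 for Gpx1 and 0.022 for Hmox1, centring 0.023 for Gpx1 and 0.021 for Hmox1, and the fit without both arrays -0.018 for Gpx2, 0.054 for Hmox1 and 0.0196 for Gclc. Against 6-week mice Gpx2 was 0.10 under the block and 0.10 without both arrays. Leaving out 1 array gave, with diabetes, -0.072 to 0.0704 for Txnrd1, -0.027 to 0.21 for Gclm, -0.61 to 0.014 for Gpx2 and -0.0001 to 0.15 for Nqo1; with age, -0.055 to 0.072 for Gpx1, -0.057 to 0.28 for Gpx2, -0.16 to 0.15 for Hmox1 and -0.34 to 0.0196 for Gclc; and against 6-week mice, -0.10 to 0.072 for Srxn1 and -0.53 to 0.10 for Gpx2. Gpx2 and Nqo1 gave no value under a filter at each array's median, which both fail. The cause of these changes was not tested. Signal near background limits what can be said of Gpx2 and Nqo1.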
